A study of Mus musculus with 5 samples.

Results

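The 54 genes described here carry out mitosis and cytokinesis, and their RNA was measured by sequencing in RAW264.7, a mouse line with macrophage traits that divides in culture, after LPS alone or LPS with the plant lignan arctigenin. The members were chosen by gene symbol, from an earlier reading of the same data, as regulators of entry into mitosis, kinases, kinetochore and spindle proteins, cytokinesis proteins and condensin. A gene was kept if its estimated counts, summed over its transcripts, reached 50 over the 5 libraries. All 54 of the 54 listed genes were kept, of 21878 gene symbols in the table, with summed counts from 990 to 34468. All of them also passed the count filter of the test.

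The vector group had 1 library. The LPS group, given 0.5 mg/mL of this bacterial lipid that activates macrophages, had 2 libraries, and the group given the same dose of LPS plus 1 µM arctigenin had 2, all doses being as labelled. Every group was the same cell line, grown in medium with foetal bovine serum and antibiotics, and the labels give no genotype, treatment time or passage. What vector contained is not stated, so a solvent of arctigenin and arctigenin itself cannot be told apart. RAW264.7 is a transformed line, and its cell cycle is not that of resting tissue macrophages.

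A dividing cell switches on its mitotic genes in G2 and clears many of their products at the end of mitosis. Cyclin-dependent kinase 1 with its cyclins starts mitosis, Aurora and Polo-like kinases build the spindle, the kinetochore ties chromosomes to it, the checkpoint delays anaphase until all are attached, and the cytokinesis machinery then parts the daughter cells. Transcription of these genes is known to be driven late in the cycle through promoter elements that include the CHR (cell cycle genes homology region), which is bound by MuvB complexes with B-Myb and FOXM1 or with repressive partners, and the CCAAT box, which is bound by NF-Y. Their summed transcripts are widely read as a measure of how much of a culture is cycling.

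Most promoters of the members held letters that match these elements, a property that the choice of members did not use. RefSeq promoter windows on build GRCm38.p6, from 250 bases before to 50 after an annotated start, were found for 44 of the 54 genes, in 47 windows, since Cep55, Ect2 and Prc1 had 2 starts each. No entry was found for Aurkb, Ccna2, Cdc25c, Dlgap5, Foxm1, Incenp, Kif20a, Smc4, Spc24 and Tpx2. The 5 windows below belong to the members with the largest change between LPS with arctigenin and LPS among those with a window, so that the letters can be read beside the values that follow. Capitals mark CHR matches (TTTGAA or TTCGAA) and CCAAT matches, each on either strand, so that TTCAAA and ATTGG are the same motifs read on the other strand. The windows are Plk1 at chr7:122159185-122159484 (plus strand), Iqgap3 at chr3:88081801-88082100 (plus strand), Troap at chr15:99074723-99075022 (plus strand), Ube2c at chr2:164769679-164769978 (plus strand) and Cenpf at chr1:189688037-189688336 (minus strand), each printed 5′ to 3′ in the direction of the gene.
Plk1: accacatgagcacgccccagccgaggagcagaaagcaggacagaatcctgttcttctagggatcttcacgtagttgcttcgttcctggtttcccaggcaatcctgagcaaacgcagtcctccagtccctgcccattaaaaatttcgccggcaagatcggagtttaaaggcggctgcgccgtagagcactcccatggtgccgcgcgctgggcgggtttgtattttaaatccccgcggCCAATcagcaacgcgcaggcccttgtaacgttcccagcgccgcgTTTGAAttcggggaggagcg
Iqgap3: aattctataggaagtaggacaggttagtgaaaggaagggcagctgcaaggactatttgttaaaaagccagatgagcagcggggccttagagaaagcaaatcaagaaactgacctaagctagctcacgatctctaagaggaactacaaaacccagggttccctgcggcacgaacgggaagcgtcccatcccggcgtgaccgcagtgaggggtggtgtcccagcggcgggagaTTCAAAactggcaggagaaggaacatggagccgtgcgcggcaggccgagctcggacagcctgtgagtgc
Troap: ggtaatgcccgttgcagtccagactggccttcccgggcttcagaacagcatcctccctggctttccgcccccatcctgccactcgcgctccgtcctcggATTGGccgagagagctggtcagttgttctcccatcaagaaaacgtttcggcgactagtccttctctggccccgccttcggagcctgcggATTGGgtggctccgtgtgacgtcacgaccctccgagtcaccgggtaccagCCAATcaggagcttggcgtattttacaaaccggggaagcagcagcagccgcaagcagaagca
Ube2c: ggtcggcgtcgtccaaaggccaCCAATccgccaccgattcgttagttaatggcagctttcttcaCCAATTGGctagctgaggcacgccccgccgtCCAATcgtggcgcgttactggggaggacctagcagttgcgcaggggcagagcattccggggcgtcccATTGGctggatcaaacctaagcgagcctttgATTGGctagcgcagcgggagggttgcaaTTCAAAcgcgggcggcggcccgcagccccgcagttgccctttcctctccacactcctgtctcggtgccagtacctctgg
Cenpf: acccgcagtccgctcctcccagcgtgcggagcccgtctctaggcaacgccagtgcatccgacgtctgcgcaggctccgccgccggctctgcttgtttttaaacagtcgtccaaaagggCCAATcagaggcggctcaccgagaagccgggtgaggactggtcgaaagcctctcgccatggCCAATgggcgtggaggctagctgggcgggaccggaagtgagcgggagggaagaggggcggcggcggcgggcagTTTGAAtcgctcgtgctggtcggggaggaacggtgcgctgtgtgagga
Of the 47 windows, 37 (78.7%) held a CHR match, against 19.2% of all 32851 promoter windows of the same length. A CCAAT match was found in 35 windows (74.5%), against 37.4% of all windows, and both motifs in 31 (66.0%), against 7.53%. Within 100 bases before to 50 after the start, 35 of the 47 (74.5%) still held a CHR match, against 8.59% of all windows. The Plk1, Iqgap3, Ube2c and Cenpf windows each had 1 CHR match, and the Troap window had none but 3 CCAAT matches. The Top2a window had the most matches of the 47, with 4 CHR and 6 CCAAT matches, while Birc5, Mad2l1, Melk, Ncaph, Nuf2 and Nusap1 had neither within the 300 bases. TTTGAA and TTCGAA do not overlap each other in these counts, and the palindromic run CCAATTGG in the Ube2c window counts as 2 CCAAT matches. A match is a description of letters, and binding was not measured.

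**Figure D1:**
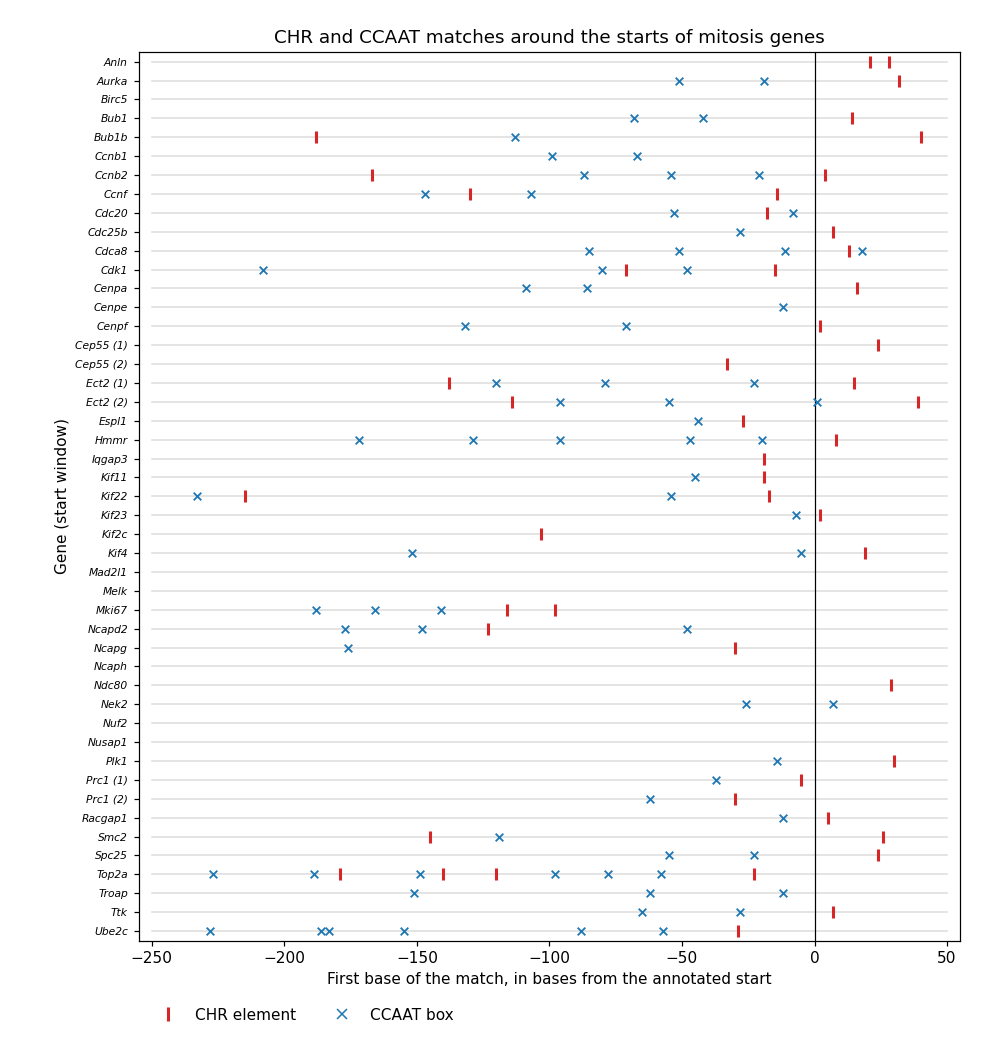
Positions of CHR matches (red bars) and CCAAT matches (blue crosses) in the 47 promoter windows of 44 genes, in bases from the annotated start (x axis, vertical line at the start), 1 row per window. The 50 CHR matches lie mostly near the start, with a median first base at -16, and the 78 CCAAT matches lie further before it, with a median at -67.5. The windows of Cep55, Ect2 and Prc1 overlap within each gene, so their matches are counted in each window.

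Library totals lay between 19836203 and 21578355 estimated counts, and the factors of the TMM scaling were 1.16 for vector and 0.942 to 0.981 for the others. The general macrophage genes of a list of 10 were all detected, with a summed level of 7909 CPM (counts scaled by library size and TMM factor) in vector, 5758 and 5626 with LPS, and 7092 and 6466 with LPS and arctigenin. Its members moved both ways: with LPS Lyz2 fell 2.57-fold and Csf1r 4.60-fold while Itgam, Fcgr1, Adgre1 and Cd68 rose. With arctigenin against LPS Cd14 rose 2.12-fold, Fcgr1, Spi1 and the low-level Mertk also rose, and Itgam and Adgre1 fell. Of 16 markers of other cell types, Cd3e and Cd3g (T cells), Epcam (epithelium), Alb (hepatocytes), Elane (granulocytes) and Flt3 (progenitors) had 0 counts in all 5 libraries. The list summed to 4.06 CPM in vector, 169 and 167 with LPS and 91.9 and 111 with LPS and arctigenin, and of that S100a8, a calcium-binding protein of granulocytes and activated macrophages, made 2.87, 162 and 161, and 88.0 and 107 CPM. The fibroblast markers Dcn (0.319 CPM in vector, 3.87 and 3.36 with LPS, 0.426 and 0.475 with LPS and arctigenin) and Lum (0.0398, then 1.08 and 0.803, then 0.106 and 0.264 CPM) were low, and both were called higher with LPS and lower with arctigenin against LPS. The endothelial marker Pecam1 (0.199, then 0.981 and 0.803, then 2.55 and 2.48 CPM) was called higher in both. Cdh5, the other endothelial marker (0.398, then 0.490 and 0.652, then 0.692 and 0.580 CPM), was called in neither. A further fibroblast marker, Col1a1, lay between 0.0532 and 0.301 CPM and was not tested. The part of these markers in the results was not tested. Nothing labels the replicates as separate cultures, and p-values therefore rest on a spread between libraries that may be technical. Replicate 1 of LPS with arctigenin was above replicate 2 in 48 of the 54 genes, by a median of 0.13 on the log2 scale, against 0.00 over all genes tested, and LPS replicate 1 was above replicate 2 in 25 of the 54.

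Together the 54 genes took 0.387% of the counts in vector, 0.174% and 0.173% with LPS, and 0.477% and 0.439% with LPS and arctigenin. Both LPS libraries were thus below the vector library, and both libraries with arctigenin above it. In bulk RNA, fewer cells in mitosis and less of these transcripts per cell cannot be told apart. The median gene of the 54 had 44.6 CPM in vector, 23.3 and 23.2 CPM with LPS, and 68.7 and 62.5 CPM with LPS and arctigenin.

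**Figure D2:**
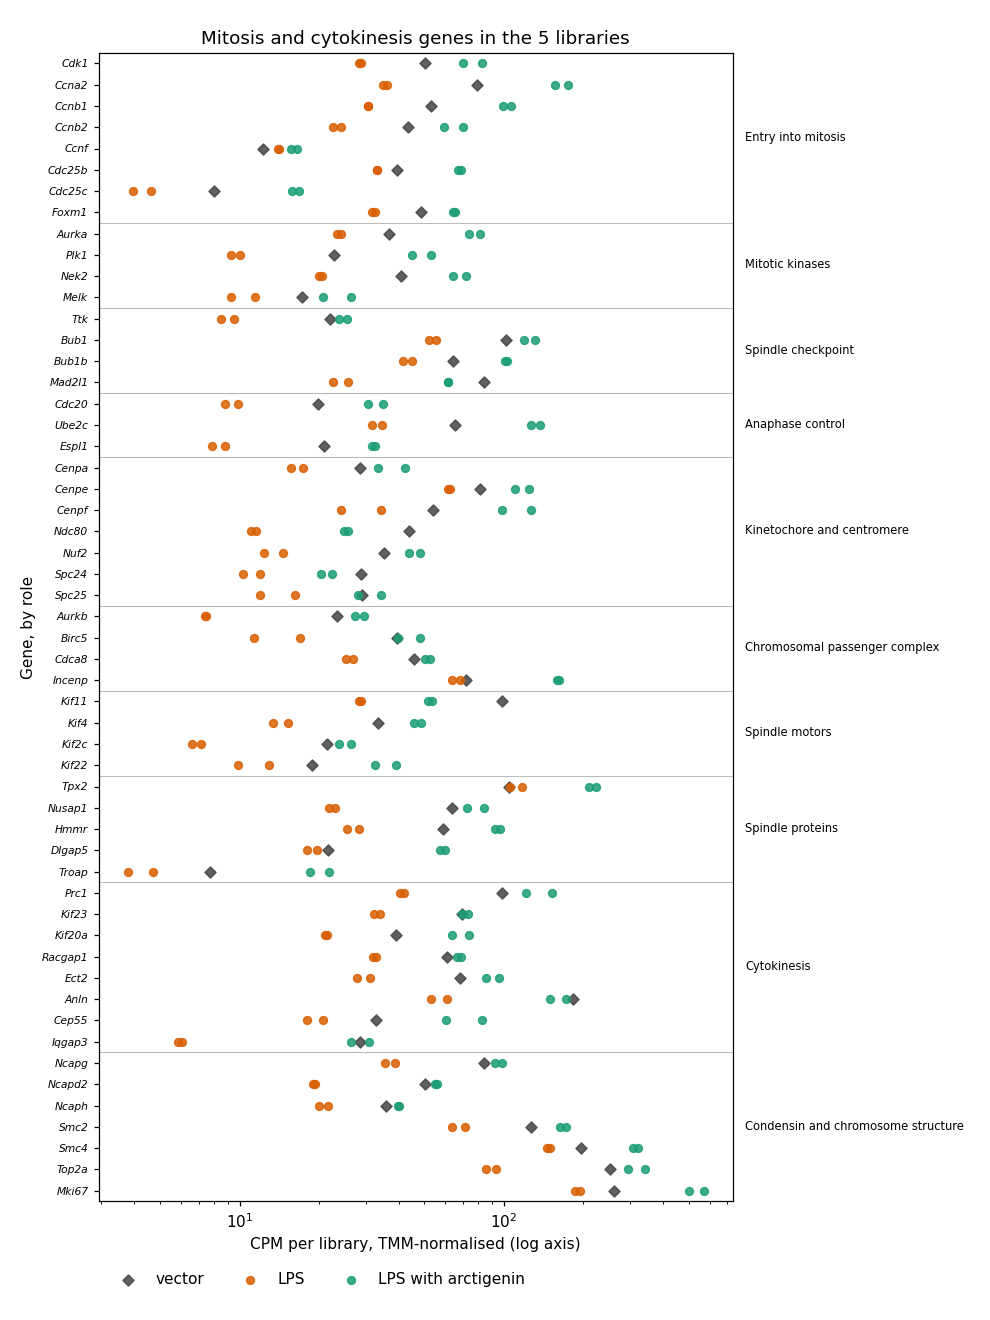
Level of each of the 54 genes (rows, by role) in each of the 5 libraries, in TMM-normalised CPM on a log axis, with the vector library as a grey diamond, LPS libraries in orange and LPS with arctigenin libraries in green. The 2 green points lie right of the 2 orange points in all 54 rows, and the vector library lies between them in most rows.

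LPS against vector compares the LPS libraries with a single vector library. With 1 vector library, an effect of LPS and a difference between cultures cannot be told apart. The quasi-likelihood test of edgeR was used, with p-values adjusted by Benjamini-Hochberg over all 11575 genes tested and a gene called at an adjusted p under 0.05. Of the 54 genes, 49 fell and 0 rose, against 24.9% of all genes called lower and 27.1% called higher. Among them 26 fell at least 2-fold, where 1895 of all 11575 genes were called with at least a 2-fold change in either direction. At an unadjusted p under 0.05 the count higher was also 0, as it was with DESeq2 and limma-voom. The median log2 fold change was -0.95 over the members and -0.01 over all genes tested. The falls ran from -2.26 in Iqgap3, a cytoskeletal scaffold, to -0.39 in Cenpe, and the vector library was above both LPS libraries in 52 of the 54, against 46.0% of all genes. The single vector library was taken to be as variable as the replicated groups. With the curated transcripts alone, Cdc25c, Melk, Cenpe, Cenpf, Nuf2, Troap, Kif23, Cep55 and Mki67 were no longer called lower. In the next comparison, LPS with arctigenin against LPS, the same setting lost the higher calls of Melk, Cenpf, Nuf2 and Cep55.

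The effect of adding arctigenin to LPS was then read as a contrast in the same fit of 5 libraries. Here 53 of the 54 rose and 0 fell, against 22.8% of all genes called higher and 22.0% called lower. Of these, 47 rose at least 2-fold, with a median log2 fold change of 1.51 over the members and -0.00 over all genes tested. Among all 11575 genes tested, 904 were called with at least a 2-fold change in either direction. DESeq2 and limma-voom also called 0 lower, and no member had a fold change below 0 at any p. Both libraries with arctigenin were above both LPS libraries in all 54 genes, against 36.9% of all genes. Without either replicate of LPS or of LPS with arctigenin, the count of rises was 53.

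LPS with arctigenin against vector asks whether the levels with arctigenin were back at those of the vector library. It showed 35 of the 54 higher and 4 lower, against 30.4% and 25.7% of all genes, and 15 not called, against 56.2% of all genes called in either direction. The median log2 fold change was 0.46 over the members and 0.03 over all genes tested, and 12 of the 54 were called at least 2-fold higher. Of all 11575 genes tested, 2334 were called with at least a 2-fold change here, counting both directions. Both libraries with arctigenin were above vector in 46 genes, against 46.4% of all genes, and below it in 5, against 44.3%. They were on both sides of it in 3, against 9.32%. These counts depended on how libraries were scaled: with library totals alone, which moved the median of all genes to -0.27 here and to -0.26 for LPS against vector, 23 were higher and 6 lower and the median over the members was 0.17. The calls lost in this way were those of Bub1, Ccnb2, Cenpa, Ect2, Espl1, Foxm1, Kif4, Nuf2, Nusap1, Prc1, Smc2 and Top2a. With curated transcripts alone, the lost calls were those of Bub1, Cenpa, Cenpf, Cep55, Espl1, Kif22, Kif4, Mad2l1, Nuf2, Nusap1, Prc1, Spc24 and Top2a. The length and GC correction added calls for Melk, Aurkb and Racgap1 (higher) and Anln (lower), and lost those of Nusap1 and Top2a. Fold changes over all genes also moved with transcript length, with a median for LPS against vector of -0.17 in the 2246 shortest genes and 0.25 in the 2247 longest, and after a length and GC correction the member medians were -0.996, 1.61 and 0.44 in the 3 comparisons. The 3 comparisons share libraries with each other, and each one's values are given beside the others without a test across them.

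**Figure D3:**
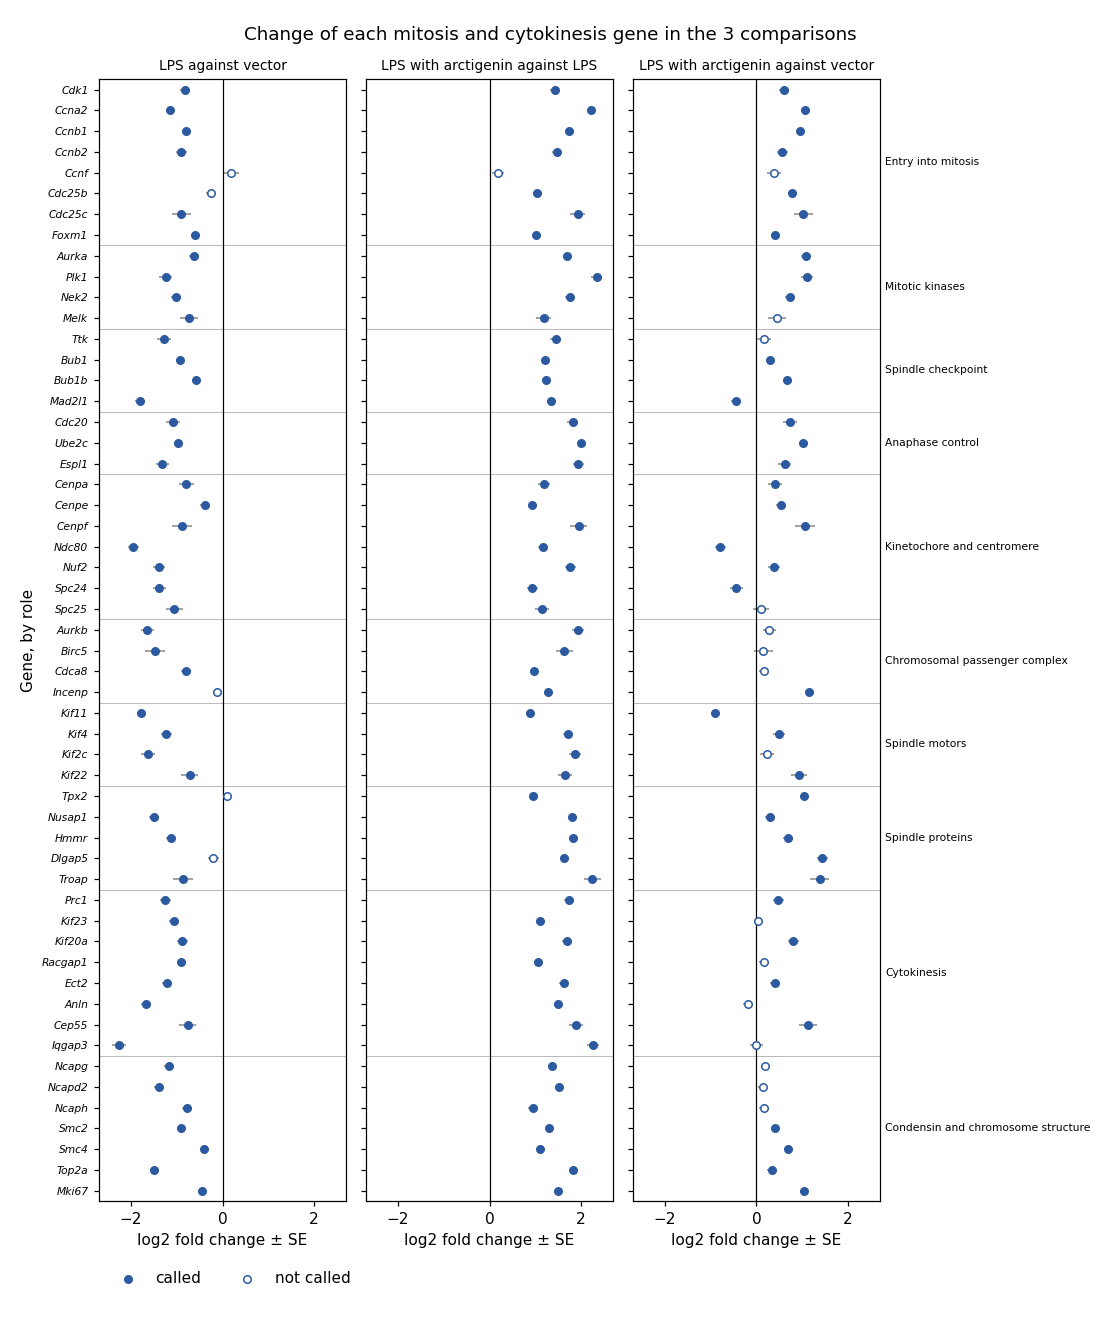
Log2 fold change of each gene (rows, by role) in the 3 comparisons, with bars for the standard error of the edgeR fit, filled points for genes called at an adjusted p under 0.05 and open points for genes not called. For LPS against vector 52 of the 54 points lie left of 0, 49 of them filled, for LPS with arctigenin against LPS all 54 lie right of 0, 53 of them filled, and against vector Mad2l1, Ndc80, Spc24 and Kif11 are the filled points on the left.

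Among the 8 genes of entry into mitosis, 6 fell with LPS and 7 rose with arctigenin against LPS, with medians of -0.81 and 1.45. Cdk1, the kinase that starts mitosis, had 50.3 CPM in vector, 28.2 and 28.7 CPM with LPS, and 82.7 and 70.1 CPM with LPS and arctigenin. It fell 1.77-fold with LPS (log2 -0.82 ± 0.12, SE; adjusted p = 2.45e-04) and rose 2.68-fold with arctigenin (log2 1.42 ± 0.10; adjusted p = 4.94e-06). The 3 groups of libraries did not overlap, with LPS lowest and arctigenin highest. Ccna2, cyclin A2, which acts from S phase into early mitosis, had 79.0 CPM in vector, 36.2 and 34.8 CPM with LPS, and 174 and 157 CPM with LPS and arctigenin, with the same order. It rose 4.66-fold with arctigenin (log2 2.22 ± 0.08), the largest rise of the 8, to 166 ± 12.5 CPM (SD, n = 2), and was 2.10-fold higher than in vector (adjusted p = 7.16e-06). Ccnb1, cyclin B1, which Cdk1 needs for entry, had 53.1 CPM in vector, 30.6 and 30.6 CPM with LPS, and 106 and 99.1 CPM with LPS and arctigenin. Its rise with arctigenin was 3.35-fold (log2 1.75 ± 0.08), and Ccnb2, cyclin B2, rose 2.77-fold (log2 1.47 ± 0.11).

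Of the phosphatases that activate Cdk1, Cdc25c was called for LPS against vector and Cdc25b was not, and the difference between them was not tested. Cdc25c had 8.01 CPM in vector, 4.61 and 3.97 CPM with LPS, and 16.8 and 15.8 CPM with LPS and arctigenin, low levels that fell 1.87-fold with LPS (log2 -0.90 ± 0.21) and rose 3.80-fold with arctigenin (log2 1.93 ± 0.17). Cdc25b had 39.6 CPM in vector, 33.0 and 33.2 CPM with LPS, and 68.8 and 67.1 CPM with LPS and arctigenin, and its fall with LPS was not called (log2 -0.26 ± 0.10; adjusted p = 0.0559), though it was called with RLE size factors (0.0491), without either LPS with arctigenin replicate (0.0455 and 0.0448) and in 2 alternatives added after the data were seen. It rose 2.05-fold with arctigenin. Foxm1, a transcription factor that drives many of these genes, had 48.6 CPM in vector, 31.6 and 32.7 CPM with LPS, and 64.1 and 65.2 CPM with LPS and arctigenin. It fell 1.51-fold with LPS (log2 -0.60 ± 0.10) and rose 2.01-fold with arctigenin (log2 1.01 ± 0.08), the libraries of the 3 groups not overlapping. Ccnf, cyclin F, an F-box protein of a ubiquitin ligase that also acts in G2, was the 1 member called in none of the 3 comparisons. It had 12.3 CPM in vector, 13.97 and 14.2 CPM with LPS, and 15.6 and 16.5 CPM with LPS and arctigenin, with adjusted p = 0.334, 0.254 and 0.0614 for LPS against vector, LPS with arctigenin against LPS and LPS with arctigenin against vector. Its vector library was the lowest of the 5 and its arctigenin libraries the highest.

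The 4 mitotic kinases fell with LPS and rose with arctigenin, with medians of -0.88 and 1.73. Plk1, Polo-like kinase 1, which acts from centrosome maturation to cytokinesis, had 22.8 CPM in vector, 9.27 and 10.0 CPM with LPS, and 53.1 and 45.1 CPM with LPS and arctigenin. It showed the largest rise of all 54 genes, 5.08-fold (log2 2.35 ± 0.12; adjusted p = 1.28e-06), to 49.1 ± 5.69 CPM (SD, n = 2), and was 2.15-fold higher than in vector. Its CHR and CCAAT matches are in the first window printed above. Aurka, the Aurora kinase of the spindle poles, had 36.6 CPM in vector, 24.2 and 23.4 CPM with LPS, and 80.9 and 73.7 CPM with LPS and arctigenin. Nek2, which parts the centrosomes, had 40.9 CPM in vector, 19.9 and 20.5 CPM with LPS, and 71.9 and 64.2 CPM with LPS and arctigenin. Both were lowest with LPS and highest with arctigenin, and both rose with arctigenin, by 1.70 and 1.75 on the log2 scale. Melk, a kinase of proliferating cells, had 17.2 CPM in vector, 9.32 and 11.4 CPM with LPS, and 26.3 and 20.7 CPM with LPS and arctigenin. It rose least of the 4, 2.27-fold (log2 1.18 ± 0.16), and was not called against vector (adjusted p = 0.0634), with both arctigenin libraries above the vector library. Against vector it was called without LPS with arctigenin replicate 2 (adjusted p = 0.0108), and its fall with LPS (adjusted p = 0.00885) was not called without LPS replicate 1 (0.0729).

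The spindle checkpoint genes, which hold back anaphase until every kinetochore is attached, all fell with LPS and all rose with arctigenin. Ttk, the kinase that starts checkpoint signalling, had 21.9 CPM in vector, 8.53 and 9.54 CPM with LPS, and 23.7 and 25.4 CPM with LPS and arctigenin. It rose 2.72-fold (log2 1.44 ± 0.13) and was not called against vector (adjusted p = 0.346). Bub1, a kinase of the kinetochore, had 102 CPM in vector, 55.5 and 52.1 CPM with LPS, and 132 and 119 CPM with LPS and arctigenin, the smallest rise of the 4 (log2 1.22 ± 0.08). Its paralog Bub1b, which encodes the checkpoint protein BubR1, had 64.2 CPM in vector, 44.8 and 41.6 CPM with LPS, and 103 and 101 CPM with LPS and arctigenin. Both lay above vector with arctigenin, Bub1 by 0.30 (adjusted p = 0.0195, and 0.0627 without LPS with arctigenin replicate 1) and Bub1b by 0.67 on the log2 scale. Mad2l1, which binds and inhibits Cdc20, went the other way against vector. It had 84.4 CPM in vector, 22.6 and 25.7 CPM with LPS, and 61.6 and 61.5 CPM with LPS and arctigenin, a 3.50-fold fall with LPS (log2 -1.81 ± 0.11) and a 2.55-fold rise with arctigenin that left it below vector (log2 -0.45 ± 0.10; adjusted p = 0.00384).

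Of the genes that end mitosis, all 3 fell with LPS, rose with arctigenin, and were above vector with arctigenin. Ube2c, the E2 enzyme of the anaphase-promoting complex, had 65.0 CPM in vector, 31.8 and 34.5 CPM with LPS, and 137 and 126 CPM with LPS and arctigenin. It rose 3.97-fold with arctigenin (log2 1.99 ± 0.08; adjusted p = 4.20e-07). Cdc20, the coactivator of that complex in metaphase, had 19.7 CPM in vector, 8.78 and 9.84 CPM with LPS, and 34.9 and 30.6 CPM with LPS and arctigenin, and rose 3.52-fold (log2 1.81 ± 0.13). Espl1, separase, which cuts cohesin at anaphase, had 20.9 CPM in vector, 7.89 and 8.83 CPM with LPS, and 31.6 and 32.6 CPM with LPS and arctigenin. Against vector, the estimate of Espl1 was below 0 with curated transcripts alone (log2 -0.75, adjusted p = 0.233). In each of the 3 the libraries of the 3 groups were separate, in the order LPS, vector, LPS with arctigenin.

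The 7 kinetochore and centromere genes all fell with LPS (median -1.05) and all rose with arctigenin (median 1.17), but against vector 4 were higher, 2 lower and 1 not called. Cenpf, a large coiled-coil protein of the outer kinetochore, had 54.0 CPM in vector, 34.2 and 24.3 CPM with LPS, and 127 and 98.3 CPM with LPS and arctigenin. It rose 3.85-fold (log2 1.94 ± 0.18), the largest rise of the 7, with LPS replicates at 34.2 and 24.3 CPM. Its fall with LPS (adjusted p = 0.0133) was not called without the count filter (0.0855). Cenpe, a kinesin that moves chromosomes to the spindle equator, had 81.3 CPM in vector, 61.3 and 62.3 CPM with LPS, and 124 and 111 CPM with LPS and arctigenin, with the smallest rise of the 7 (log2 0.92 ± 0.08). Cenpa, the histone H3 variant that marks centromeres, had 28.6 CPM in vector, 17.4 and 15.7 CPM with LPS, and 42.4 and 33.4 CPM with LPS and arctigenin, and its call against vector (adjusted p = 0.0479) was lost in 8 of 12 alternatives, among them leaving out LPS replicate 1 (0.0808), LPS replicate 2 (0.0795) or LPS with arctigenin replicate 1 (0.211).

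The 4 subunits of the Ndc80 complex, the rod that holds microtubules, were called in different directions against vector. Ndc80 had 43.7 CPM in vector, 11.0 and 11.5 CPM with LPS, and 25.8 and 24.8 CPM with LPS and arctigenin, a 3.88-fold fall with LPS (log2 -1.96 ± 0.12) and a 2.24-fold rise with arctigenin, which left it 1.73-fold below vector (adjusted p = 2.64e-04). Spc24 had 28.9 CPM in vector, 11.9 and 10.3 CPM with LPS, and 22.3 and 20.3 CPM with LPS and arctigenin and also stayed below vector (log2 -0.44 ± 0.14; adjusted p = 0.0239), a call lost in DESeq2 (0.130), with curated transcripts only (0.116) and without LPS with arctigenin replicate 2 (0.0662). Spc25 had 29.1 CPM in vector, 11.9 and 16.2 CPM with LPS, and 34.3 and 28.0 CPM with LPS and arctigenin, on both sides of vector and not called against it (log2 0.10 ± 0.18; adjusted p = 0.669). Nuf2 had 35.2 CPM in vector, 12.4 and 14.6 CPM with LPS, and 48.0 and 43.7 CPM with LPS and arctigenin and was above vector (log2 0.38 ± 0.13; adjusted p = 0.0289). That call did not hold in 4 of 12 alternatives, which include DESeq2 (0.146) and leaving out LPS with arctigenin replicate 1 (0.0794). Per kilobase of the longest annotated transcript, the level of Nuf2 was the lowest of the 4 in vector, 14.6 against 19.0 for Spc25, 19.9 for Ndc80 and 21.4 CPM per kb for Spc24. With LPS and arctigenin Ndc80 had the lowest, 11.7 and 11.3, against 19.9 and 18.2 for Nuf2, 22.4 and 18.3 for Spc25 and 16.5 and 15.0 CPM per kb for Spc24.

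**Figure D4:**
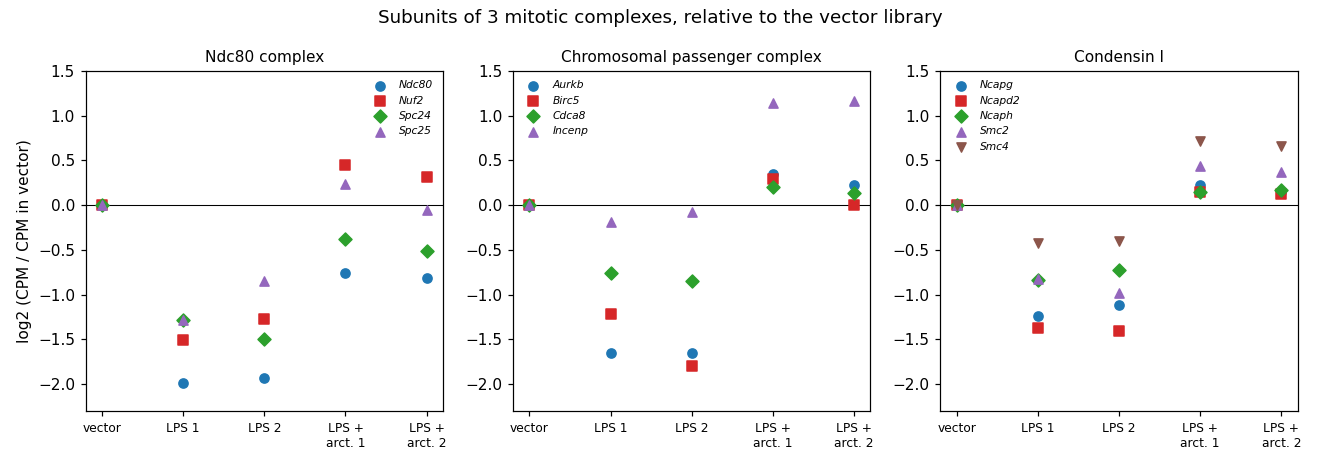
Subunits of the Ndc80 complex, the chromosomal passenger complex and condensin I in each of the 5 libraries (x axis), as log2 of the CPM over the CPM in the vector library (y axis, 0 is vector). Ndc80 and Spc24 stay below 0 with arctigenin while Nuf2 is above it, and Incenp, near 0 with LPS, is above 1 in both libraries with arctigenin.

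The chromosomal passenger complex, which corrects wrong attachments and then prepares cytokinesis, had 1 of 4 subunits called against vector. Aurkb, its kinase, had 23.3 CPM in vector, 7.45 and 7.43 CPM with LPS, and 29.6 and 27.3 CPM with LPS and arctigenin. It fell 3.14-fold with LPS (log2 -1.65 ± 0.14) and rose 3.82-fold with arctigenin (log2 1.93 ± 0.12), to levels above vector that were not called (adjusted p = 0.0972). Birc5, survivin, which brings the complex to centromeres, had 39.5 CPM in vector, 17.0 and 11.3 CPM with LPS, and 48.3 and 39.6 CPM with LPS and arctigenin. It fell 2.79-fold (log2 -1.48 ± 0.21) and rose 3.10-fold (log2 1.63 ± 0.18), its LPS replicates differing by 39.7% of their mean, the widest gap of the 54 genes in that group. Cdca8, borealin, had 45.6 CPM in vector, 26.9 and 25.3 CPM with LPS, and 52.6 and 50.1 CPM with LPS and arctigenin, and the smallest rise of the 4 (log2 0.98 ± 0.09). Incenp, the scaffold that activates Aurkb, had 72.1 CPM in vector, 63.4 and 68.2 CPM with LPS, and 159 and 161 CPM with LPS and arctigenin. It did not pass the test for LPS against vector (log2 -0.13 ± 0.08; adjusted p = 0.213), rose 2.43-fold with arctigenin (log2 1.28 ± 0.07) and was 2.22-fold higher than in vector (adjusted p = 2.26e-06), the only 1 of the 4 called against vector. Its vector library was above both LPS libraries, and on curated transcripts alone its log2 fold change with LPS was 0.86 (adjusted p = 0.0362), a rise, whereas with library totals alone it was -0.38 (adjusted p = 0.00307), a fall.

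All 4 spindle motors fell with LPS and rose with arctigenin, and against vector Kif11 was the one called lower. Kif11, the kinesin-5 that pushes spindle poles apart, had 98.1 CPM in vector, 28.8 and 28.2 CPM with LPS, and 53.4 and 51.6 CPM with LPS and arctigenin. It fell 3.44-fold with LPS (log2 -1.78 ± 0.09), the largest fall of the 4, rose least with arctigenin, 1.84-fold (log2 0.88 ± 0.08), and stayed 1.87-fold below vector (adjusted p = 2.15e-05). Kif2c, which shortens microtubules at centromeres, had 21.4 CPM in vector, 7.16 and 6.63 CPM with LPS, and 26.4 and 23.8 CPM with LPS and arctigenin, and rose 3.64-fold (log2 1.86 ± 0.13). It was not called against vector (adjusted p = 0.196). Kif22, a chromosome-arm motor, had 18.8 CPM in vector, 9.86 and 12.9 CPM with LPS, and 39.2 and 32.5 CPM with LPS and arctigenin, and its fall with LPS (adjusted p = 0.00876) was not called without LPS replicate 1 (0.0663). Kif4, a chromosome-bound kinesin of the central spindle, had 33.5 CPM in vector, 13.3 and 15.3 CPM with LPS, and 48.6 and 45.6 CPM with LPS and arctigenin. Both were called above vector with arctigenin, by 0.93 and 0.49 on the log2 scale.

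All 5 spindle proteins rose with arctigenin against LPS and were called above vector, with a median against vector of 1.04. Troap, a protein needed for spindle assembly, had 7.73 CPM in vector, 3.78 and 4.72 CPM with LPS, and 21.9 and 18.5 CPM with LPS and arctigenin, and rose 4.75-fold (log2 2.25 ± 0.18; adjusted p = 9.63e-06). Its fall with LPS (adjusted p = 0.00762) was not called without LPS replicate 1 (0.0601). Tpx2, which targets and activates Aurora A on the spindle, had 105 CPM in vector, 106 and 117 CPM with LPS, and 222 and 209 CPM with LPS and arctigenin, where LPS and vector did not differ by the test (log2 0.09 ± 0.09; adjusted p = 0.415) and the rise with arctigenin was 1.94-fold (log2 0.95 ± 0.07). Dlgap5, which stabilises kinetochore fibres, had 21.6 CPM in vector, 19.7 and 18.02 CPM with LPS, and 59.8 and 57.5 CPM with LPS and arctigenin, not called for LPS against vector (adjusted p = 0.192) and 3.11-fold higher with arctigenin. With library totals alone it was called lower with LPS (log2 -0.45, adjusted p = 0.00998). It stood 2.71-fold above vector (log2 1.44 ± 0.12), the largest such difference of the 54 genes. Nusap1, a microtubule bundler, had 63.4 CPM in vector, 21.8 and 23.0 CPM with LPS, and 83.8 and 72.8 CPM with LPS and arctigenin. Hmmr, a spindle-pole protein, had 59.1 CPM in vector, 25.5 and 28.3 CPM with LPS, and 96.6 and 92.9 CPM with LPS and arctigenin. Both fell with LPS and rose with arctigenin. The call of Nusap1 against vector (adjusted p = 0.0399) was lost in 8 of 12 alternatives, among them leaving out LPS replicate 1 (0.0709), LPS replicate 2 (0.0714) or LPS with arctigenin replicate 1 (0.147).

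The 8 cytokinesis genes all fell with LPS (median -1.14) and all rose with arctigenin (median 1.65), and against vector 4 were higher and 4 not called. Iqgap3, a scaffold of the cell cortex, had 28.6 CPM in vector, 6.08 and 5.82 CPM with LPS, and 30.8 and 26.4 CPM with LPS and arctigenin. It had the largest fall with LPS of the 54 genes, 4.79-fold (log2 -2.26 ± 0.15; adjusted p = 1.36e-06), and a 4.80-fold rise with arctigenin (log2 2.26 ± 0.14), with the vector library between both libraries with arctigenin. Racgap1, the GTPase-activating subunit of centralspindlin, had 60.8 CPM in vector, 32.9 and 32.0 CPM with LPS, and 68.7 and 66.7 CPM with LPS and arctigenin, and the smallest rise of the 8 (log2 1.06 ± 0.08). Its partner Kif23, the motor of centralspindlin, had 69.4 CPM in vector, 34.0 and 32.2 CPM with LPS, and 73.0 and 69.2 CPM with LPS and arctigenin. Neither was called against vector (adjusted p = 0.193 and 0.779), and the direction of Kif23 turned on the setting, below vector with library totals alone (log2 -0.26, adjusted p = 0.0400) and above it on curated transcripts alone (log2 0.65, adjusted p = 0.0223). Anln, anillin, which organises the contractile ring, had 182 CPM in vector, 61.2 and 52.9 CPM with LPS, and 172 and 149.7 CPM with LPS and arctigenin, below vector in both libraries with arctigenin but not called (log2 -0.18 ± 0.11; adjusted p = 0.173). Without LPS with arctigenin replicate 1 it was called, at a log2 fold change of -0.28 (adjusted p = 0.0296). Cep55, which directs abscission, had 32.8 CPM in vector, 20.6 and 18.1 CPM with LPS, and 82.8 and 60.6 CPM with LPS and arctigenin, and its call for LPS against vector (adjusted p = 0.00960) was lost without LPS replicate 2 (0.0549). Ect2, the activator of RhoA at the division plane, had 68.1 CPM in vector, 27.8 and 31.1 CPM with LPS, and 95.4 and 85.3 CPM with LPS and arctigenin. Prc1, which bundles the central spindle, had 98.2 CPM in vector, 40.5 and 42.1 CPM with LPS, and 152 and 122 CPM with LPS and arctigenin. Kif20a, a motor of the midzone, had 39.2 CPM in vector, 21.4 and 21.1 CPM with LPS, and 73.7 and 63.5 CPM with LPS and arctigenin. Each of these 4, Cep55 included, was higher than vector with arctigenin, from 0.41 in Ect2 to 1.13 in Cep55 on the log2 scale.

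Condensin and chromosome structure genes fell with LPS and rose with arctigenin, all 7 in both comparisons. Top2a, the topoisomerase that unlinks sister DNA, had 252 CPM in vector, 93.4 and 85.8 CPM with LPS, and 342 and 294 CPM with LPS and arctigenin. It fell 2.81-fold (log2 -1.49 ± 0.10) and rose 3.55-fold (log2 1.83 ± 0.08), the largest rise of the 7. Mki67, the chromosome-coating protein known as Ki-67, was the most abundant member by CPM in every library, with 261 CPM in vector, 186 and 194 CPM with LPS, and 571 and 503 CPM with LPS and arctigenin. It fell 1.37-fold (log2 -0.46 ± 0.09), rose 2.83-fold (log2 1.4996 ± 0.07) and was 2.06-fold above vector (adjusted p = 7.20e-06). On curated transcripts alone its estimate for LPS against vector was above 0 (log2 0.13, adjusted p = 0.747). The 3 subunits found only in condensin I were above vector in both libraries with arctigenin but not called (adjusted p = 0.117 for Ncapg, 0.271 for Ncapd2 and 0.255 for Ncaph). Ncapg had 83.8 CPM in vector, 35.5 and 38.6 CPM with LPS, and 98.0 and 92.6 CPM with LPS and arctigenin. Ncapd2 had 50.2 CPM in vector, 19.4 and 19.0 CPM with LPS, and 55.8 and 54.8 CPM with LPS and arctigenin. Ncaph, with the smallest rise of the 7 (log2 0.94 ± 0.10), had 35.8 CPM in vector, 20.005 and 21.6 CPM with LPS, and 39.7 and 40.1 CPM with LPS and arctigenin. The 2 ATPases that both condensins share were called above vector. Smc2 had 126 CPM in vector, 71.0 and 63.8 CPM with LPS, and 171 and 162 CPM with LPS and arctigenin (log2 0.40 ± 0.09 against vector). Smc4 had 196 CPM in vector, 146 and 149 CPM with LPS, and 321 and 309 CPM with LPS and arctigenin (log2 0.68 ± 0.07 against vector).

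Per kilobase of the longest annotated transcript, the levels in vector ran from 2.99 CPM per kb in Troap, 3.15 in Espl1 and 3.31 in Ccnf to 45.5 in Smc4, 48.3 in Top2a and 48.9 in Mad2l1. With LPS, Smc4 (33.9 and 34.6) and Tpx2 (24.2 and 26.8) were highest, and Mad2l1 was at 13.1 and 14.9 CPM per kb. With LPS and arctigenin, Smc4 (74.4 and 71.6), Ube2c (62.4 and 57.7) and Top2a (65.4 and 56.3) were highest, and the ranges of Top2a and Ube2c overlapped. With 1 vector library, neighbours in the order of vector levels, such as Top2a and Mad2l1, cannot be separated.

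On build mm9 (NCBIM37, GENCODE vM1), all 54 genes were found by symbol as genes on 17 chromosomes. Chromosome 7 holds Plk1 (129302951 to 129313389, plus) and Mki67 (142881471 to 142908062, minus). Aurkb (68859149 to 68865166, plus), Top2a (98854257 to 98885503, minus) and Birc5 (117710565 to 117717069, plus) lie on chromosome 11. Cdk1 lies on chromosome 10 from 68799383 to 68815686 (minus), Ccnb1 on chromosome 13 from 101548605 to 101556525 (minus) and Foxm1 on chromosome 6 from 128312985 to 128325911 (plus). All 8 are annotated as protein-coding.

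Other genes of division, from lists of named genes that are no members, were read in the same fit. For these and the following lists, 27.1% of all genes were called higher and 24.9% lower with LPS. With arctigenin against LPS the shares were 22.8% and 22.0%, and against vector 30.4% and 25.7%. Of 39 other mitotic genes 38 were tested (Sgol2 was not found under that symbol and is not analysed here), and 31 fell with LPS and 3 rose (median -1.002). With arctigenin against LPS 36 rose and 0 fell (median 1.38), led by Aspm, a spindle-pole protein (log2 2.00 ± 0.11), Pbk, a mitotic kinase (log2 1.98 ± 0.13), and Gtse1 (log2 1.95 ± 0.16). The largest falls with LPS were in Oip5 (log2 -2.17 ± 0.24), Cdca5, the cohesin protector sororin (log2 -2.11 ± 0.27), and Kif15, a spindle kinesin (log2 -1.88 ± 0.15). Pttg1, securin, which inhibits Espl1, was among the 3 that rose with LPS (log2 0.42 ± 0.15; adjusted p = 0.0368), beside Psrc1 (log2 0.33 ± 0.12) and Ckap5 (log2 0.23 ± 0.08). Of 23 other kinetochore genes 16 fell and 2 rose with LPS, and 17 rose and 0 fell with arctigenin (median 0.64). Casc5, which encodes the Knl1 scaffold, rose most (log2 1.76 ± 0.10), while Zwint and Cenpb rose with LPS (log2 0.72 ± 0.12 and log2 0.66 ± 0.10) and were not called with arctigenin (adjusted p = 0.0803 and 0.269).

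The next lists hold the anaphase-promoting complex, condensin II and cohesin with their regulators. Of 14 genes of the anaphase-promoting complex and its regulators, 5 fell and 2 rose with LPS (median -0.09). Of all genes, 52.0% were called in either direction there, so the count is near the share over all genes. With arctigenin 8 rose and 1 fell (median 0.31), where 44.8% of all genes were called. Fbxo5, its inhibitor Emi1, showed the largest change in both, with 26.2 CPM in vector, 5.15 and 3.61 CPM with LPS, and 18.3 and 15.2 CPM with LPS and arctigenin (log2 -2.58 ± 0.21 and log2 1.93 ± 0.19). Of 14 genes of condensin II and cohesin 7 fell and 2 rose with LPS, and 9 rose and 0 fell with arctigenin (median 0.34). Esco2, the cohesin acetyltransferase of S phase, changed most (log2 -2.16 ± 0.21 and log2 1.40 ± 0.19), and Smc1a fell with LPS (log2 -0.74 ± 0.08) but was not called with arctigenin (adjusted p = 0.685).

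The S phase genes, of DNA replication and nucleotide supply, fell with LPS and rose with arctigenin too. Of 20 S phase genes 18 fell and 1 rose with LPS (median -1.18), and 19 rose and 0 fell with arctigenin (median 0.90). Against vector 4 were higher and 9 lower with arctigenin (median -0.20), where 35 of the 54 members were higher and 4 lower. The difference between the lists was not tested. Tk1, thymidine kinase, fell most with LPS (log2 -2.75 ± 0.15) and stayed below vector (log2 -1.85 ± 0.14), with 42.4 CPM in vector, 5.98 and 6.58 CPM with LPS, and 11.98 and 11.6 CPM with LPS and arctigenin. Cdc6, the licensing factor (log2 1.43 ± 0.18), Gins1 (log2 1.34 ± 0.17) and Rrm1, the large subunit of ribonucleotide reductase (log2 1.24 ± 0.08), rose most with arctigenin.

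The regulators of the cell cycle programme and the G1 genes went both ways. Of 26 regulators 12 fell and 3 rose with LPS, and 14 rose and 4 fell with arctigenin. Of all genes, 52.0% and 44.8% were called in either direction in these 2 comparisons. E2f7 (log2 1.65 ± 0.37), Wee1, the kinase that restrains Cdk1 (log2 1.58 ± 0.20), and E2f8 (log2 1.53 ± 0.18) rose most with arctigenin. E2f7 was low, with 1.03 and 2.56 CPM in the LPS replicates, which lay far apart, and 5.59 and 5.69 CPM with LPS and arctigenin. Mybl2, which encodes B-Myb, had 16.1 CPM in vector, 8.73 and 8.53 CPM with LPS, and 21.9 and 23.3 CPM with LPS and arctigenin. Lin54, the MuvB subunit that binds the CHR, had 44.6 CPM in vector, 63.1 and 72.8 CPM with LPS, and 127 and 119.7 CPM with LPS and arctigenin, higher than vector in all 4 treated libraries. Myc (log2 -1.04 ± 0.11), E2f1 (log2 -0.61 ± 0.10) and E2f6 (log2 -0.55 ± 0.13) fell with arctigenin, Myc from 103 and 93.8 to 42.1 and 53.5 CPM against 114 in vector. Of 17 G1 cyclins, CDKs and inhibitors 14 were tested, and 6 rose and 4 fell with arctigenin. Ccne2 (log2 1.47 ± 0.21), Ccnd1, cyclin D1 (log2 1.23 ± 0.06), and Cdkn1a, the CDK inhibitor p21 (log2 0.93 ± 0.07), rose most, and Cdk6 (log2 -0.79 ± 0.07), Btg2 (log2 -0.76 ± 0.15) and Ccnd2 (log2 -0.57 ± 0.12) fell most. Cdkn1a had 338 CPM in vector, 365 and 355 CPM with LPS, and 725 and 643 CPM with LPS and arctigenin, so it was highest in the same libraries as the mitotic genes. Cdkn2a, which encodes the inhibitor p16 and p19Arf, had 0 counts in all 5 libraries.

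**Figure D5:**
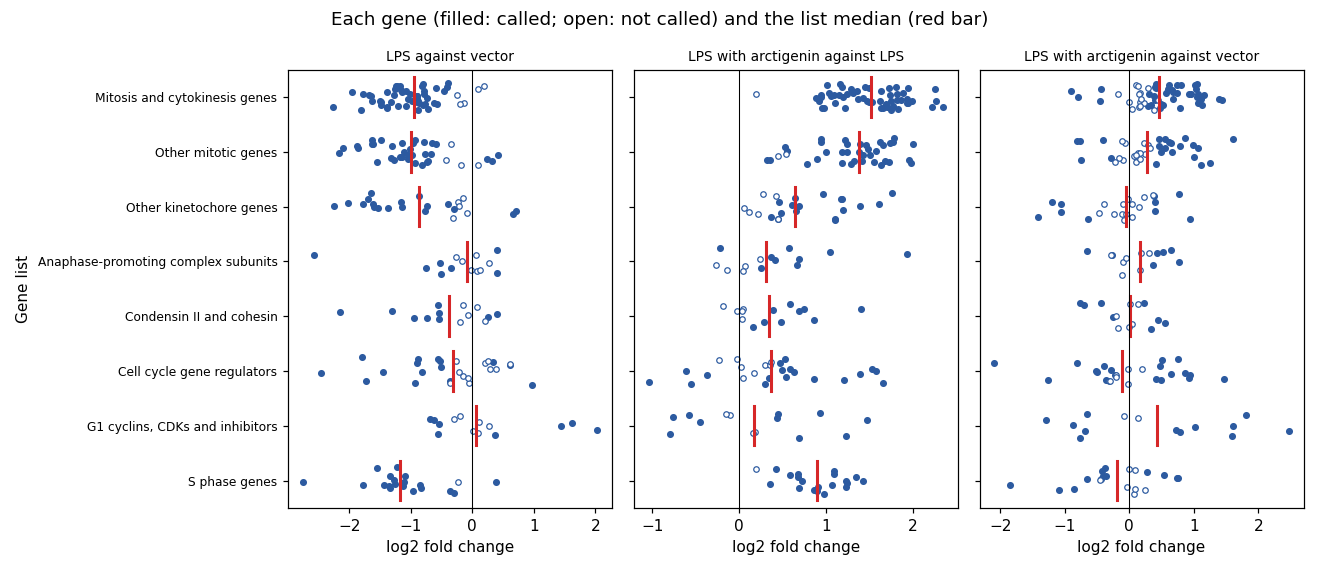
Log2 fold change (x axis) of each tested gene in the 54 members and in 7 other lists (rows) for the 3 comparisons, filled where called at an adjusted p under 0.05, with the list median as a red bar. The median of the members is -0.95, 1.51 and 0.46 in the 3 panels, and that of the S phase genes is -1.18, 0.90 and -0.20.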

How the data were processed

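For 75959 RefSeq transcripts in 5 libraries, the authors deposited estimated counts (expected counts, with decimals). Per the submitters' processing notes, Trimmomatic, HISAT2, Cufflinks, HTSeq, DESeq and build mm9 were used, with no versions or order given. The tool that gave decimals and the use of strand are not given in the sources used here. Without strand, overlapping genes on opposite strands cannot be told apart. The transcripts of a symbol were added up and the sum rounded. edgeR 4.0.16 in R 4.3.3 was used (filterByExpr with minimum count 10 and total 15, TMM, estimateDisp and glmQLFit with the robust option, glmQLFTest), with all 5 libraries in 1 fit on group, 11575 genes tested, 2 residual degrees of freedom, and 7.13% as the biological coefficient of variation. The SE was taken as the fold change (log2) divided by the root of the F statistic. The test was checked on simulated counts: of 50 genes raised 2-fold for LPS with arctigenin against LPS, among 11278 tested, 90.0% were called. Every simulated gene had the same coefficient of variation, 0.07, and no shift shared between replicates. The check therefore does not show how often genes are falsely called in these libraries. Lengths came from the longest protein-coding transcript of GENCODE vM1. The members, their subgroups and the other lists were chosen with earlier results of these data known. Values in every library are given for the members with the largest and smallest change in each subgroup, 8 fixed genes and any member not called or against its subgroup, and others were added after their values were seen. Alternatives were RLE scaling, no count filter, DESeq2 1.42.0, limma-voom (limma 3.58.1), curated transcripts only, no robust option, each replicate left out, a replicate block and, added later, library totals, a length and GC correction, and the 4 LPS libraries alone.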

Additional observations from a re-analysis of the deposited data

How the results depend on the processing

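One vector library and 2 libraries in each treated group limit every value, and scaling sets the level against vector. The rise with arctigenin against LPS was called for 53 of the 54 genes under each alternative except curated transcripts alone (49), where 4 lost the call. With curated transcripts alone, all genes called higher and lower were 1895 and 1316 (LPS against vector), 1372 and 1160 (LPS with arctigenin against LPS) and 2240 and 1575 (LPS with arctigenin against vector). The same setting gave 1 member higher with LPS, 2 members lower than vector with arctigenin, and, among genes of the other lists, 10 higher and 58 lower for LPS against vector, 5 lower for LPS with arctigenin against LPS and 16 lower for LPS with arctigenin against vector. It turned Incenp (0.86) and Mki67 (0.13) for LPS against vector and Espl1 (-0.75) for LPS with arctigenin against vector. With library totals alone, LPS against vector had 2015 genes higher and 4598 lower, 7 of the other lists higher and a member median of -1.20. LPS with arctigenin against vector then had 2138 genes higher and 4751 lower, 25 higher and 63 lower in the other lists, 23 members higher, a member median of 0.17, and Kif23 at -0.26. DESeq2 called 25 genes of the other lists lower in that comparison, and a length and GC correction moved the member median against LPS to 1.61. The causes of these shifts were not tested. Leaving out 1 replicate at a time gave 1686 to 2621 genes higher and 1548 to 2559 lower for LPS with arctigenin against LPS, the lowest without LPS replicate 1, and member medians of 0.42 to 0.58 against vector, the highest without LPS with arctigenin replicate 2. Where a group was left with 1 library, it was assumed to vary like the others. Replicate numbers do not pair the libraries by any label, and deviations of same-numbered libraries had a correlation of -0.01 over 11575 genes and 0.17 over the 54 members. A fit with the replicate block on 4 libraries called 53 members higher and 0 lower (median 1.51), with 2694 genes higher and 2626 lower against 2676 and 2594 without the block.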

Other observations

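The 54 genes had 172 transcripts in the table, and 11 genes had 1. In 8 genes (Cenpf, Cep55, Espl1, Incenp, Mad2l1, Mki67, Nuf2 and Top2a) fewer than 50% of the counts were on curated transcripts. Mki67 had 4 transcripts, and the estimated counts of its curated one were 605 in vector, 590 and 469 with LPS, and 2193 and 1500 with LPS and arctigenin. One predicted model of Mki67 had 2498 in vector, 840 and 1068 with LPS, and 1432 and 1849 with LPS and arctigenin. These counts were not scaled by library size or TMM factor. Unscaled, the curated transcript was far above vector with arctigenin, while that model was below vector in all 4 treated libraries. The TMM factor was highest in vector, so an unscaled count somewhat below that of vector does not show a lower level. The curated transcript of Incenp had 357 in vector, 566 and 468 with LPS, and 831 and 1043 with LPS and arctigenin. Counts of single transcripts were estimated from shared reads, and 1 of the 3 curated transcripts of Cep55 had 114 and 0.006 in the 2 LPS replicates.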
